A study of Mus musculus with 4 samples.

Results

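Noncycling CD8 T cells of the subcutaneous adipose tissue (SAT) were followed in 2 single-cell RNA libraries, 1 from mice given D-CAN and 1 from control mice given PBS. D-CAN is a peptide that joins a sequence homing to adipose stromal cells to an amphipathic cell-killing sequence, built of D-amino acids and injected under the skin. All mice were FVB mice on chow that carried subcutaneous grafts of MycCaP, a prostate cancer line from HiMyc mice, so the control group carried the tumor too. The cells were stromal/vascular cells of inguinal SAT after removal of red and dead cells, and the age, sex and number of mice behind each library were not stated for these samples. With 1 library per group, the treatment cannot be told apart from the library, and no test between the groups was possible.

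Members were chosen by measured values. Each cell had at least 200 detected genes, at least 2 molecules (unique molecular identifiers, UMIs) of Cd3d, Cd3e and Cd3g together, at least 1 of Cd8a or Cd8b1, none of Cd4, Cd79a, Ms4a1, Mki67 or Top2a, and at most 1 of Lyz2. Cells with both Nkg7 and any of Ccl5, Gzma or Gzmb were left out as cytotoxic. These rules gave 268 members of 4738 SAT cells (8986 cells in the series), 128 in the control library and 140 in the D-CAN library. The same rules gave 0 members among 2761 control and 1487 D-CAN cells of the tumors, which at 3 counts allows shares of up to 0.109% and 0.202% (exact 95% upper limits 0.134% and 0.248%). The genes of the rules describe the choice and are not results.

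CD8 T cells recognise peptides on MHC class I molecules through the T cell receptor (TCR), with CD8 as co-receptor. Cells that have not met antigen keep transcription factors such as Tcf7, Lef1 and Klf2 and circulate through lymph nodes by means of homing receptors such as Ccr7. Cells that have met it can become killers with granzymes and perforin, long-lived memory cells or resident cells of a tissue. Interferons, made during infection, tissue damage and tumor growth, induce a shared set of genes in most cell types, T cells included.

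Cd8a (chr6:71373427-71379173, plus strand, GRCm38) and its neighbour Cd8b1 (chr6:71322788-71337494, plus strand) encode the chains of the co-receptor. Both transcripts were found in 64 control and 82 D-CAN members, Cd8a alone in 25 and 18, and Cd8b1 alone in 39 and 40. Pooled over members, Cd8a had 409 CPM in control and 391 in D-CAN, and Cd8b1 533 and 474. CPM here is a gene's UMIs per 1000000 UMIs summed over all members of a library, and as molecules were counted from their 3′ ends it is not scaled by gene length. The label rested on few molecules in many cells. A single Cd8 molecule admitted 40 control members (31.2%) and 22 D-CAN members (15.7%), and the lowest allowed sum of Cd3 molecules admitted 16 and 7. Just outside the rules lay 19 control and 12 D-CAN cells with a Cd3 sum of 1, and 39 and 53 cytotoxic cells. Another 253 control and 264 D-CAN cells met every rule but that for Cd8.

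Genes that the rules did not use also marked αβ T cells. Trac, Trbc1 or Trbc2, the constant parts of the αβ TCR, was seen in 122 control members (95.3%) and 138 D-CAN members (98.6%), while the γδ constant genes appeared in 2 and 1. Trbc2 stood at 1320 CPM in control and 1714 in D-CAN members, against 8.52 and 7.33 in B cells of the same libraries. Trbc1 and Trbc2 are nearly identical, so the split between them is uncertain. Variable segments were rarely captured from the 3′ end. Control members held 21 UMIs of 13 Trav genes in 16 cells, D-CAN members 40 UMIs of 20 Trav genes in 21 cells, and Trbv genes gave 5 and 15 UMIs. By UMIs, the most frequent segment was Trav16n in control, with 7 in 5 members, and Trav2 in D-CAN, with 6 in 1 member. These are too few to describe clonality.

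Cells of the D-CAN library held more UMIs. Kept cells had a median of 1707 UMIs in control and 2950 in D-CAN, members 3434 (576 to 9510) and 4004 (667 to 14023). Member sums were 435458 and 595547 UMIs, so that 1 UMI equalled 2.30 and 1.68 CPM, and a count of 0 allowed up to 6.89 and 5.04 CPM (3 counts). The mitochondrial share had a median of 5.37% and 5.78%, and exceeded 10% in 14 and 12 members. The libraries shared 2 cell barcodes, and 0 of these belonged to members. Intervals are 95% intervals, exact for shares, levels and ratios and, for differences of shares, combined from the exact intervals of both shares. They cover counting error only, not differences between mice. Levels and ratios pool UMIs over members, so their intervals also leave out the spread between members.

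The share of members among all kept cells was 4.51% in control (128 of 2841; 3.77 to 5.33%) and 7.38% in D-CAN (140 of 1897; 6.24 to 8.65%), and the gap was 2.87 percentage points (1.47 to 4.34). CD4 T cells and B cells were higher shares in D-CAN too, at 3.03% and 5.48% and at 16.5% and 25.04%. Among T cells the interval of the gap included 0. Of noncycling, noncytotoxic T cells (Cd4, Cd8, both or neither), members were 27.2% of 471 in control and 27.3% of 512 in D-CAN, a difference of 0.168 points (-5.55 to 5.86). Of the members and their Cd4-bearing counterparts together they were 59.8% and 57.4%, a difference of -2.44 points (-11.7 to 6.90). Among cells with a UMI of Ptprc, which encodes the leukocyte antigen CD45, the shares were 7.98% and 9.63%, a difference of 1.65 points (-0.587 to 3.91). Cytotoxic cells were 23.4% of noncycling CD8 cells in control and 27.5% in D-CAN (difference 4.11 points, -5.34 to 13.4). Cycling cells numbered 7 and 9. The gap was smaller among cells with at least 1000 UMIs, with members at 6.22% of 1928 in control and 8.05% of 1701 in D-CAN, 1.83 points apart. After each of these cells was thinned to 1000 UMIs the same rules held for 2.90% in control and for 4.06% in D-CAN, which left a gap of 1.15 points. That gap lies below the interval of the gap over all kept cells (1.47 to 4.34). Its own interval was not computed.

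**Figure D1:**
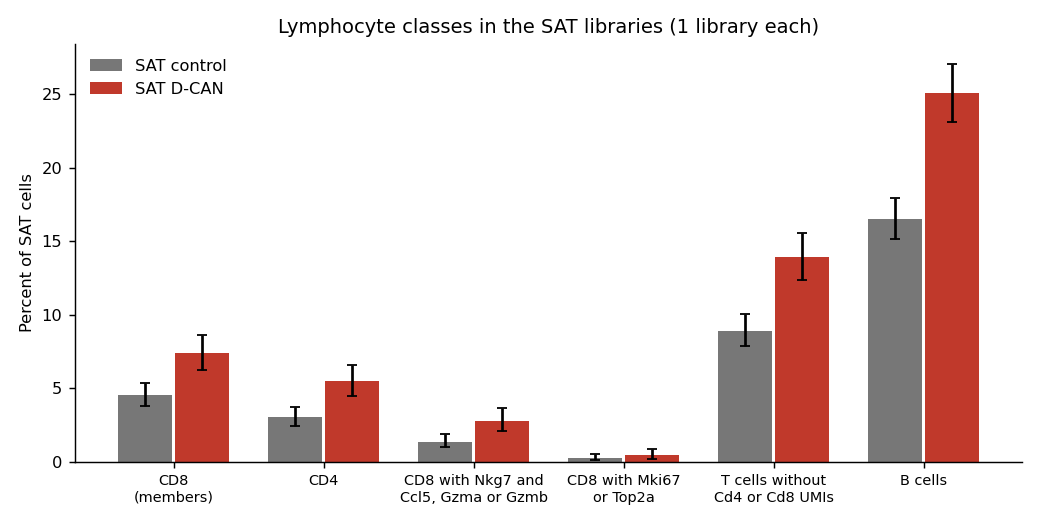
Share of each lymphocyte class in percent of all SAT cells (y axis), with bars for the SAT control (gray) and SAT D-CAN (red) libraries and exact 95% binomial intervals. Noncycling CD8 T cells (4.51% and 7.38%), CD4 T cells and B cells are all larger shares in the D-CAN library.

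The members carried transcripts of the naive and lymph node homing program in both libraries, at levels near those of CD4 T cells. CD4 T cells were taken by the same rules with at least 1 Cd4 and no Cd8 molecule, 86 in control and 104 in D-CAN. Of a list of 20 such genes, 11 lay above and 9 below CD4 T cells in control, and 12 above and 8 below in D-CAN. The median log2 ratio of CD8 to CD4 was 0.03 and 0.07, where all genes with at least 20 UMIs had medians of -0.17 and -0.11. Dapl1, a gene of resting naive CD8 T cells, had 289 CPM in control and 393 in D-CAN members, 148 and 171 in CD4 T cells, and 0 UMIs in B cells of either library. Satb1, a chromatin organiser of T cells, had 374 and 420 CPM, and Tcf7 227 and 218. Igfbp4, a binding protein of insulin-like growth factors, was the 1 list member of 19 with at least 50 UMIs past 2-fold in both libraries (of all 3205 genes tested, 0.686% were higher and 1.15% lower), with 126 and 148 CPM in members and 267 and 302 in CD4 T cells.

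Several naive genes were higher in members of the D-CAN library. Klf2, which drives the expression of exit and homing receptors, had 997 CPM (905 to 1095) in control and 1390 (1297 to 1488) in D-CAN, a log2 ratio of 0.48 (0.31 to 0.65). Ccr7, the receptor for lymph node chemokines, had 250 CPM (206 to 302) and 364 (318 to 416), a log2 ratio of 0.54 (0.20 to 0.89). Lef1, a partner of Tcf7, had 230 and 316 CPM (log2 ratio 0.46, 0.10 to 0.82), and the log2 ratio of Dapl1 was 0.44 (0.12 to 0.77). In D-CAN, 30 of 234 Dapl1 UMIs lay in 1 member, and without the top member of each library its ratio was 0.34. For Tcf7 the log2 ratio was -0.06 with an interval that included 0. Over the list, 14 of 20 genes were above and 6 below control, with a median log2 ratio of 0.27 beside -0.03 over all 4215 genes with at least 20 UMIs. Of 17 list genes with at least 50 UMIs, 0 passed 2-fold in either direction, where 0.518% of all 1930 genes tested were higher and 0.881% lower. CD4 T cells of the same libraries had 14 genes above and 5 below (median 0.18) and B cells a median of -0.03, and B cells, too, had more Ccr7 in D-CAN (186 and 364 CPM). These comparisons share the same 2 libraries.

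Per cell, at 1000 UMIs each, a Ccr7 molecule was found in 20.8% of control members (25 of 120) and 29.9% of D-CAN members (41 of 137). Before thinning the shares were 46.9% and 62.1%. Lef1 was found in 20.8% and 27.7%, against 0.893% and 0.215% of B cells. Dapl1 was found in 19.2% and 22.6% of members and in none of the 448 and 465 thinned B cells. For Ccr7, Lef1 and Dapl1 the exact intervals of the thinned control and D-CAN member shares overlapped. These per-cell differences are therefore not resolved. Thinning left out 8 control and 3 D-CAN members with fewer UMIs. A thinned member held a median of 3 of the 20 naive genes in control and 4 in D-CAN, and 83.3% and 90.5% of members held at least 2 of them. The share holding 2 or more was 75.9% and 88.2% in CD4 T cells, 69.2% and 84.9% in cytotoxic CD8 cells, and 56.5% and 59.4% in B cells, some of which use the same genes.

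**Figure D2:**
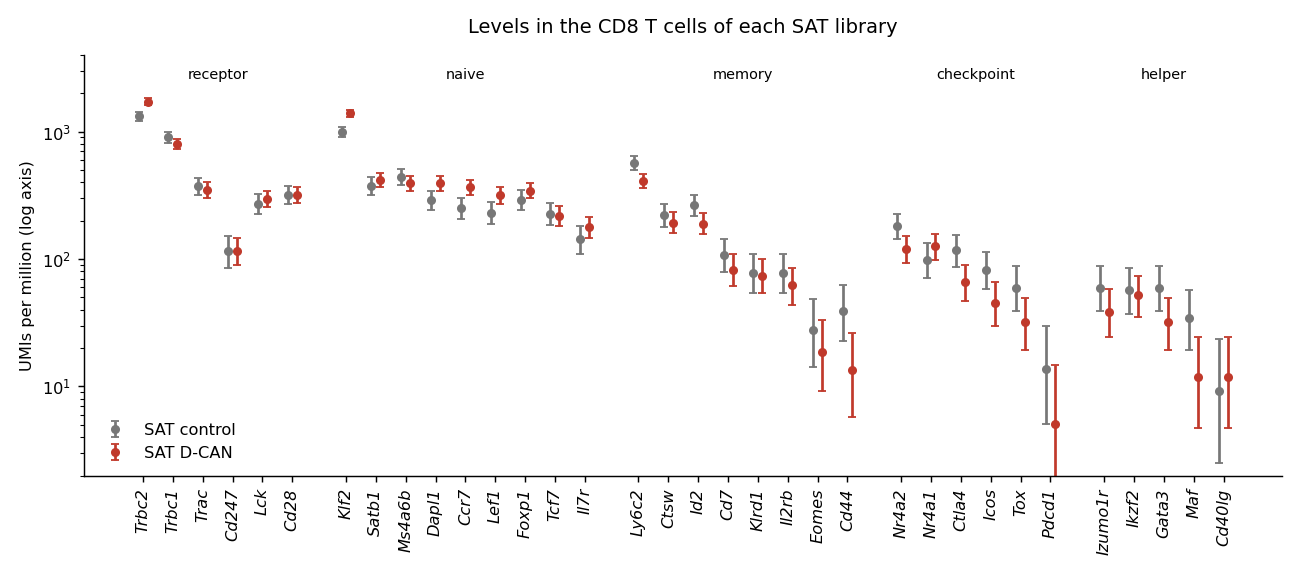
Pooled levels in CPM (y axis, log scale) of receptor, naive, memory, checkpoint and helper genes in the noncycling CD8 T cells of the SAT control (gray) and SAT D-CAN (red) libraries, with exact 95% Poisson intervals. Klf2, Dapl1, Ccr7 and Lef1 lie higher in D-CAN, Tcf7 lies at like levels in both, and Pdcd1 and Cd40lg lie near the floor.

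Beside the naive program, part of the members carried genes of memory CD8 T cells. Ly6c2 (chr15:75108158-75111970, minus strand), a surface protein of memory and some resting CD8 T cells in the mouse, had 246 UMIs in 54 control members and 245 UMIs in 61 D-CAN members. No CD4 T cell held a Ly6c2 molecule, which made the members at least 52.2-fold higher in control and at least 57.7-fold higher in D-CAN. At 1000 UMIs per cell Ly6c2 was found in 26.7% and 27.7% of members, 59.0% and 62.3% of cytotoxic CD8 cells, and 0.446% and 0.430% of B cells. Ctsw, a protease of killer lymphocytes, had 220 and 193 CPM in members and 18.1 and 11.9 in CD4 T cells. Klrd1, which encodes the receptor CD94, had 78.1 and 73.9 CPM against 3.61 and 21.4. Il2rb, the shared chain of the interleukin-2 and interleukin-15 receptors, had 78.1 and 62.1 CPM. Eomes, a factor of memory and effector cells, had 27.6 and 18.5 CPM and no UMI in CD4 T cells.

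Other genes of antigen-experienced cells were low. Cd44, the common marker of past activation, had 39.0 CPM in control and 13.4 in D-CAN members, and 83.0 and 54.7 in CD4 T cells. S100a4, a calcium-binding protein of memory T cells, had 16.1 and 3.36 CPM in members against 336 and 563. S100a6 had 48.2 and 18.5 CPM against 213 and 475. Of the 20 genes of the memory list, 12 had at least 50 UMIs over both T cell groups, and 4 of these were past 2-fold higher and 3 past 2-fold lower than in CD4 T cells in both libraries, where 0.686% and 1.15% of all 3205 genes tested were. The list's median log2 ratio to CD4 was 1.42 in control and 0.03 in D-CAN, and 1.36 and 0.03 with genes unseen in a group set to 3 counts. Between libraries, 2 of its 12 genes with at least 20 UMIs in members were above and 10 below control. The median log2 ratio was -0.42 beside -0.03 over all genes. In CD4 T cells 7 genes were above and 2 below, with a median of 0.65 beside -0.07. The cytotoxic CD8 cells left out by the rules had 40.1 and 158 CPM of S100a4, 75.1 and 80.4 of S100a6 and 35.1 and 48.3 of Cd44. Ctsw was lower there in D-CAN, with 431 and 225 CPM. These cells also held 3 and 240 UMIs of Fabp4, a gene of the endothelial list.

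Killer genes outside the rules were at low levels. Prf1, which encodes perforin, had 23 and 21.8 CPM, and Gzmk and Cx3cr1 had no UMI in either library. Ifng had 24 UMIs in 9 control members and 2 UMIs in 2 D-CAN members. CD4 T cells held 7 and 0 UMIs of Ifng, but the cytotoxic CD8 cells left out by the rules held 14 and 46 (70.1 and 148 CPM). Ccl4, a chemokine of activated cells, had 71.2 and 75.6 CPM and none in CD4 T cells, which made members at least 6.57-fold and 10.6-fold higher. In D-CAN, 33 of its 45 UMIs came from 1 member, and without the top member of each library the bounds were 4.48-fold and 2.86-fold. Because cells with Nkg7 and granzymes or Ccl5 were removed, the low granzyme counts follow from the rules.

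Markers of tissue residency were mixed. Cd69, which is also an early activation gene, had 579 and 569 CPM, whereas Itgae (CD103) had 29.9 and 23.5 and Cxcr6 43.6 and 47.0. Zfp683, the resident cell factor Hobit, had fewer than 5 UMIs. Of 7 residency genes with at least 20 UMIs, 4 lay above and 3 below CD4 T cells in each library, with medians of 0.00 and 0.27. Of the inhibitory receptors, Havcr2 and Tigit had no UMI, Pdcd1 had 6 and 3 UMIs, and Lag3 had 12 and 1, whereas Ctla4 was found in 27 control and 14 D-CAN members, at 117 and 65.5 CPM. Icos had 82.7 and 45.3 CPM against 224 and 181 in CD4 T cells, and Tox, a factor of exhausted and other T cells, 59.7 and 31.9. Nr4a2, an immediate target of TCR signals, was higher, with 181 and 119 CPM in members and 57.8 and 26.1 in CD4 T cells. Its paralogs were not higher in control. Nr4a1 had 98.7 and 126 CPM against 159 and 131. Its log2 ratios to CD4 were -0.69 (-1.33 to -0.05) in control and -0.06 (-0.57 to 0.48) in D-CAN. Nr4a3 had 87.3 and 131 CPM against 86.6 and 83.2, with a log2 ratio of 0.64 (0.06 to 1.27) in D-CAN. The list of activation and checkpoint genes had a median log2 ratio to CD4 of -0.894 and -0.997 over 13 genes.

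Members with and without Ly6c2 were then set side by side, a split chosen after its values were seen. In control, 74 members had 0 Ly6c2 molecules, 11 had 1, 22 had 2 to 4 and 21 had 5 or more, with a highest value of 22. In D-CAN these numbers were 79, 15, 27 and 19, with a highest value of 16. Members with Ly6c2 were deeper, with medians of 3809 and 3081.5 UMIs in control and 4517 and 3831 in D-CAN. Naive genes differed by gene. Ccr7 had 249.3 CPM with and 251 without Ly6c2 in control, and 352 and 375 in D-CAN. Lef1 had 226 and 233 CPM, and 298 and 331. Dapl1 was higher with Ly6c2, at 348 CPM (273 to 437) against 233 (174 to 306) in control and 439 (365 to 525) against 353 (291 to 424) in D-CAN. Tcf7 had 273 and 184 CPM in control and 236 and 203 in D-CAN. Ccr9, a receptor for homing to the gut, had 0 and 11 UMIs in control and 5 and 19 in D-CAN.

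Of 1929 genes with at least 50 UMIs in members, 5 (0.259%) were past 2-fold higher and 2 (0.104%) past 2-fold lower with Ly6c2 in both libraries. Ctla2a, an inhibitor of cysteine proteases, had 216 CPM (158 to 289) with and 85.3 (51.3 to 133) without Ly6c2 in control, and 232 (179 to 297) and 46.9 (26.2 to 77.3) in D-CAN. Hopx, a homeodomain protein of memory T cells, had 65.8 and 26.9 CPM in control and 94.4 and 15.6 in D-CAN. Psmb10, a subunit of the immunoproteasome, had 174 and 49.4 CPM, and 127 and 62.5. Nsg2, a gene of the naive list, was also higher with Ly6c2, with 75.2 and 35.9 CPM in control and 116 and 28.1 in D-CAN. Wipf1 was the remaining higher gene. Ctla4, the inhibitory receptor, went the other way, with 65.8 CPM with and 166 without Ly6c2 in control, and 25.4 and 99.96 in D-CAN. Psmd12 was the second gene that was lower. Igfbp4 had 79.9 and 171 CPM in control and 120 and 172 in D-CAN, and Id2, a factor of effector and memory cells, 179 and 346, and 102 and 266.

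Against CD4 T cells, 22 of 3205 genes outside the rules (0.686%) were past 2-fold higher in members in both libraries and 37 (1.15%) past 2-fold lower, among genes with at least 50 UMIs over both cell groups. Ranked by the library with the smaller difference, the 10 highest were Ly6c2, Ccl4, Ctsw, Xcl1, Pde3b, Ms4a4c, Cd226, Fam241a, Pde7a and Klrd1. Cd226, an activating receptor for nectin-like ligands, had 89.6 and 73.9 CPM in members and 14.4 and 9.50 in CD4 T cells. The phosphodiesterases Pde3b and Pde7a, which break down cyclic AMP, had 39.0 and 48.7 against 3.61 and 7.13 CPM, and 91.9 and 48.7 against 25.3 and 11.9. Runx3, the factor that silences Cd4 in the CD8 lineage, had 204 and 168 CPM against 65.0 and 73.7.

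Ranked likewise, the 10 lowest were Ly6c1, S100a4, Cd40lg, Tbc1d4, Capg, Arl5a, Maf, S100a6, Tnfrsf4 and Tmem64. Ly6a, not among these 10, had a log2 ratio to CD4 of -1.40 in control and was at least 25.9-fold lower in D-CAN. Helper genes were lower as a group. Cd40lg, the ligand by which helper cells act on B cells, had 9.19 and 11.8 CPM in members and 134 and 61.8 in CD4 T cells. Maf had 34.4 and 11.8 against 155 and 133, Ikzf2 57.4 and 52.1 against 332 and 171, Gata3 59.7 and 31.9 against 130 and 78.4, and Izumo1r, a folate receptor of regulatory T cells, 59.7 and 38.6 against 224 and 116. In D-CAN, 14 of the 31 Ikzf2 UMIs lay in 1 member. With the top member of each library left out, members had 46.2 and 29.1 CPM of Ikzf2, 20.9 and 8.53 of Maf and 4.64 and 6.79 of Cd40lg. All 5 genes of the helper list with at least 50 UMIs were past 2-fold lower in both libraries, where 1.15% of all 3205 genes tested were. Tnfrsf4 (OX40), a co-stimulatory receptor, had 20.7 and 40.3 CPM against 137 and 162, and 20 of its 24 D-CAN UMIs lay in 1 member. Without the top member of each library the levels were 13.9 and 6.82 CPM.

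The paralogs of the Ly6c locus went opposite ways. Ly6c1 (chr15:75044018-75048830, minus strand) had 1 UMI in the members of each library, and 21 and 36 UMIs in CD4 T cells, which had no Ly6c2. Ly6c1 is also known from endothelial cells, whose list summed to 206 and 316 CPM in CD4 T cells and 101 and 99.1 in members. In D-CAN, 22 of the 36 Ly6c1 UMIs lay in 1 CD4 T cell that also held all 28 UMIs of Aqp1, 20 of Gpihbp1 and 17 of Egfl7. Without the 1 CD4 T cell per library that held 5 or more UMIs of stromal, endothelial, red cell or epithelial genes, CD4 T cells had 19 and 14 UMIs of Ly6c1. The paralogs are nearly identical in sequence, so the assignment of reads between them is uncertain.

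**Figure D3:**
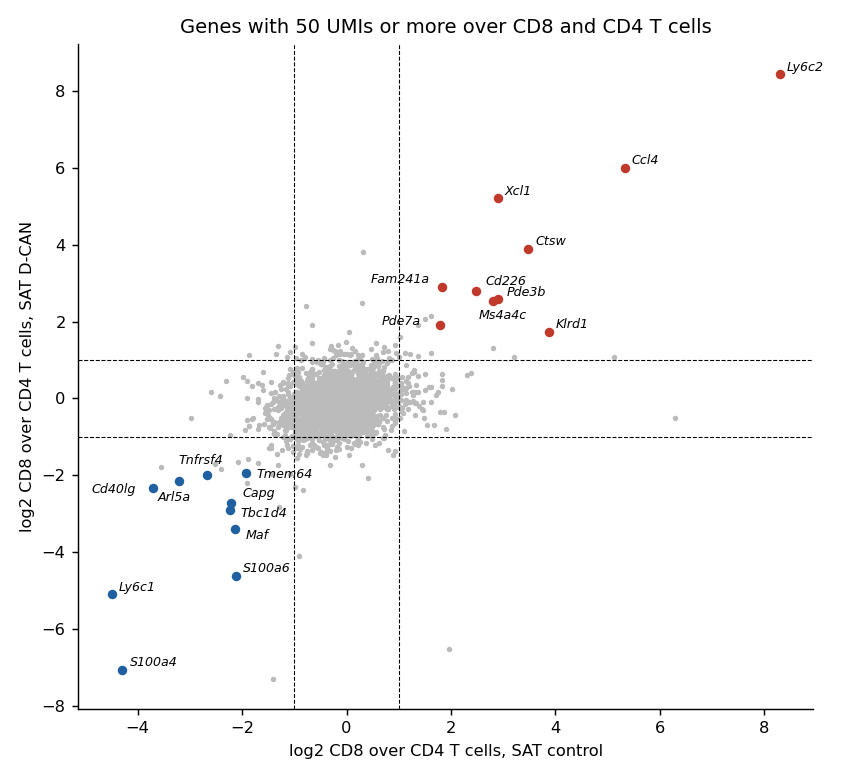
Log2 ratio of noncycling CD8 to CD4 T cells in the SAT control library (x axis) and the SAT D-CAN library (y axis), 1 point per gene with at least 50 UMIs and dashed lines at 2-fold and genes at 0 in CD4 T cells placed by the pseudocount. The 10 highest genes (red), ranked by the library with the smaller difference, lie at the upper right, led by Ly6c2. The 10 lowest (blue), ranked likewise, lie at the lower left, with Ly6c1 and S100a4 farthest out.

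Lists of core T cell functions had medians near 0 between the libraries. The list of 20 proximal TCR signalling genes had a median log2 ratio to CD4 of -0.31 in control (5 genes above, 15 below) and -0.26 in D-CAN (7 above, 13 below), beside -0.17 and -0.11 over all genes, and of 0.09 between D-CAN and control members. Lck, the kinase bound by CD8, had 271 and 297 CPM, and Cd28, the main co-stimulatory receptor, 319 and 317 against 495 and 478 in CD4 T cells, log2 ratios to CD4 of -0.63 (-0.98 to -0.28) and -0.59 (-0.88 to -0.30). Cytokine and chemokine receptors had medians of 0.25 and -0.15 against CD4 and of -0.14 between libraries. Class I presentation genes had a median of 0.02 between libraries in members and -0.29 in CD4 T cells. H2-D1 had 2939 and 3518 CPM, B2m 2154 and 2007, and H2-K1 1989 and 2047, but FVB mice carry other class I alleles than the reference genome, so the split of class I reads is uncertain. Stress and immediate early genes, survival genes and proliferation genes had medians of 0.04, 0.07 and -0.16 between libraries. Against CD4 T cells the medians were -0.16 and -0.05 for stress genes, -0.19 (3 above, 9 below) and -0.36 (1 above, 11 below) for survival genes, and 0.23 and -0.08 for proliferation genes. Pim1, a survival kinase induced by cytokines, was past 2-fold lower, with 147 and 154 CPM in members and 347 and 394 in CD4 T cells. The Y-linked genes Eif2s3y (71.2 and 67.2 CPM) and Ddx3y (78.1 and 57.1 CPM) were seen in both libraries, and Xist had fewer than 5 UMIs.

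Between D-CAN and control members, 10 of 1930 genes with at least 50 UMIs (0.518%) were past 2-fold higher and 17 (0.881%) past 2-fold lower. The genes Ifi27l2a and Gbp4 of the interferon response were among the lower ones. Ifi27l2a (chr12:103442167-103443680, minus strand), a small interferon-induced mitochondrial protein, had 838 CPM (754 to 929) in control and 257 (218 to 301) in D-CAN members, a log2 ratio of -1.70 (-1.99 to -1.43). At 1000 UMIs per cell it was found in 45.8% of control members (55 of 120) and 13.9% of D-CAN members (19 of 137), and before thinning in 60.9% and 40.0%. Other lymphocytes differed the same way. Ifi27l2a had 1614 and 634 CPM in CD4 T cells, a log2 ratio of -1.35 (-1.57 to -1.12), and 695 and 265 CPM in B cells, -1.39 (-1.57 to -1.21). The thinned shares were 51.8% and 27.5% in CD4 T cells, 28.2% and 9.43% in cytotoxic CD8 cells and 36.4% and 17.6% in B cells.

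Of the 24 interferon-stimulated genes listed, 17 had at least 20 UMIs in members, of which 4 were above and 13 below control, with a median log2 ratio of -0.74 beside -0.03 over all genes. In CD4 T cells 5 were above and 12 below, with a median of -0.11 beside -0.07, and B cells had a median of -0.23 beside -0.03. The summed level of the list was 2547 CPM in control and 1379 in D-CAN members, 3451 and 2326 in CD4 T cells, and 2558 and 1810 in B cells. Without Ifi27l2a the other 23 genes summed to 1709 and 1122 CPM in members, 1837 and 1692 in CD4 T cells, and 1863 and 1545 in B cells. Of 9 list genes with at least 50 UMIs in members, 2 passed 2-fold, Ifi27l2a and Gbp4, both lower, where 0.881% of all 1930 genes tested were lower and 0.518% higher. Gbp2, an interferon-induced GTPase, had 59.7 and 21.8 CPM (-1.42, -2.54 to -0.44) and a ratio of -1.31 in CD4 T cells.

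Gbp4, another GTPase of this family, had 80.4 and 36.9 CPM in members (-1.11, -1.96 to -0.31) and a ratio of 0.06 (-0.92 to 1.11) in CD4 T cells, and these intervals overlap. Ly6e, which restricts viral entry, had 351 and 227 CPM (-0.63, -0.98 to -0.29), with 0.22 (-0.14 to 0.59) in CD4 T cells. Irf7 had 50.5 and 16.8 CPM and Xaf1 41.3 and 13.4. Isg15, a ubiquitin-like modifier, had 45.9 and 25.2 CPM (-0.86), with an interval that included 0. Slfn2, Ifi47, Igtp and Irgm1 were the 4 genes above control. Ly6a, which encodes Sca-1, had 23 UMIs in 15 control members and none in 140 D-CAN members, which made it at least 10.5-fold lower. CD4 T cells had 141 and 131 CPM, or 139 and 111 without the cells with endothelial transcripts described above. In B cells Ly6a was lower in D-CAN too, with 160 and 86.5 CPM. The cytotoxic CD8 cells left out by the rules went the other way, with 4 and 25 UMIs (20.04 and 80.4 CPM). Those cytotoxic cells also held 3 and 240 UMIs of the endothelial list gene Fabp4. The difference between cell groups in these ratios was not tested, since each rests on 1 library per group.

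**Figure D4:**
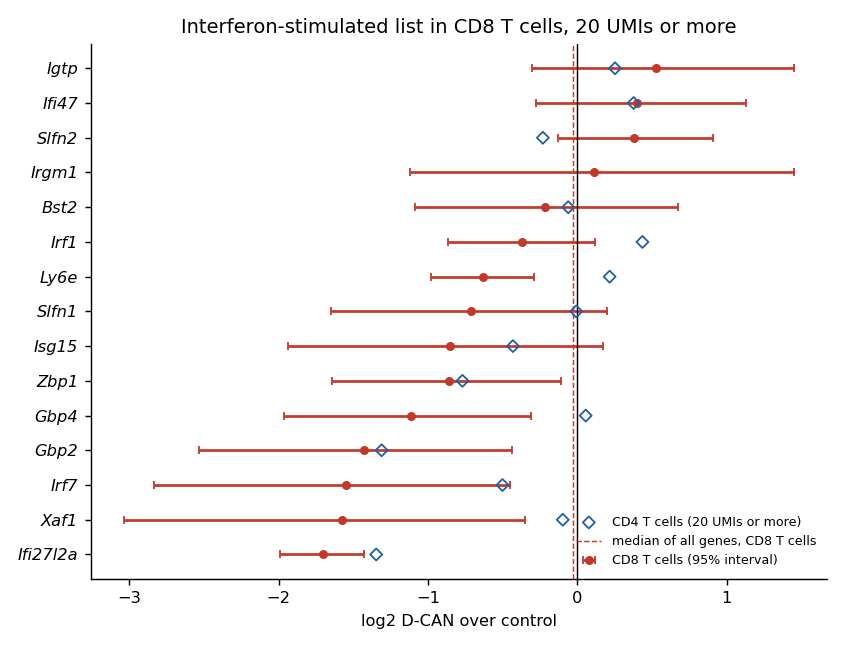
Log2 ratio of D-CAN to control (x axis) for genes of the interferon-stimulated list (rows) in noncycling CD8 T cells (red, with exact 95% intervals that cover counting error) and CD4 T cells (blue diamonds), with the median of all genes dashed and some list genes, among them Ly6a, which is at 0 in D-CAN, not drawn. Ifi27l2a and Gbp2 lie below 0 in both cell groups, whereas Gbp4 and Ly6e lie below 0 in CD8 T cells and near or above 0 in CD4 T cells.

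The interferon-stimulated response element, bound by factors of the IRF family and their partners, holds a pair of GAAA repeats. The letters GAAANNGAAA were searched on both strands of the RefSeq promoter windows of 300 bases (250 before to 50 after the gene start, GRCm38.p6). Of the 24 list genes, 15 had a window, and 7 of these held the letters, while 3.99% of all 27025 genes in the table did (3.44% of its 32851 windows). Isg15 and Gbp2 are shown as list members that hold the letters. The interval of the D-CAN to control ratio lay below 0 for Gbp2 and included 0 for Isg15. Isg15 (chr4:156200769-156201068, minus strand) has 3 overlapping matches on its own strand, the first base of which lies 78, 72 and 66 bases before the start, and Gbp2 (chr3:142620413-142620712, plus strand) has 1 match on the opposite strand, whose window position begins 59 bases before the start. Capitals mark the matches, and both sequences run 5′ to 3′ along the gene.
Isg15: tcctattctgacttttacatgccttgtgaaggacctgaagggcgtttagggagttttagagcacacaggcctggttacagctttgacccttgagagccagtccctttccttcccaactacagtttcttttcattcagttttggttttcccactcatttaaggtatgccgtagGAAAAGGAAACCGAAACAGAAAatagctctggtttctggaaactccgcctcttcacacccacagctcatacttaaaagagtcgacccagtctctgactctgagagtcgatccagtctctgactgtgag
Gbp2: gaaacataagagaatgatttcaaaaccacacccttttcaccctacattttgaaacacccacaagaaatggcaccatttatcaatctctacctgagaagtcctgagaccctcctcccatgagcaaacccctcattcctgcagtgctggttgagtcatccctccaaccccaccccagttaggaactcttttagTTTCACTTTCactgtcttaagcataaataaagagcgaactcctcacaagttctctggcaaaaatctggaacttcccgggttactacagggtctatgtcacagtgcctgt
The matches describe these letters only. Of the 4 list genes above control in D-CAN members, Igtp and Irgm1 also held them.

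For some of the other large differences, most UMIs lay in single cells. Sox4, a factor of immature and activated lymphocytes, had 32.2 and 113 CPM (log2 ratio 1.77, 0.96 to 2.75), and 46 of its 67 D-CAN UMIs lay in 1 member. Without the member holding most of it in each library the levels were 11.6 CPM in control and 35.7 in D-CAN, a log2 ratio of 1.52. The UMIs left were fewer than the minimum set for counting a gene as past 2-fold, so this ratio does not decide whether the difference holds. Xcl1, the chemokine that draws cross-presenting dendritic cells, had 39.0 CPM in 9 control members and 131 in 7 D-CAN members (1.71, 0.98 to 2.60), with 53 of 78 UMIs in 1 member of 14023 UMIs. With the top member of each library left out the ratio was 0.48. Acta2 and Tagln, genes of smooth muscle, had 81 and 61 UMIs in control and 1 and 0 in D-CAN, and Tagln was at least 27.8-fold lower. A single control member of 4302 UMIs held all 81 Acta2 UMIs and 59 of the Tagln UMIs, with 32 of Myh11, 28 of Myl9 and a mitochondrial share of 15.0%. Cst3, a protease inhibitor abundant in dendritic cells, had 202 and 85.6 CPM (-1.23), and 40 of 88 control UMIs lay in 1 member of 1801 UMIs that also held 24 UMIs of H2-Ab1, 12 of Cd74 and 6 of Irf8. With the top members left out the ratio was -0.43.

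**Figure D5:**
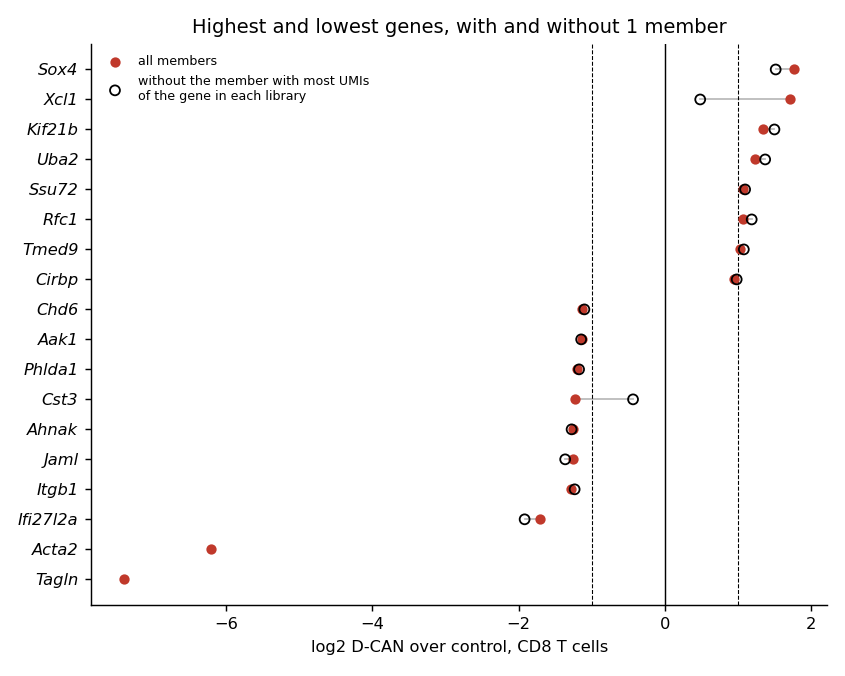
Log2 ratio of D-CAN to control (x axis) in noncycling CD8 T cells for genes among the 10 highest and 10 lowest (rows), over all members (filled) and without the member holding the most UMIs of the gene in each library (open), with dashed lines at 2-fold. Genes left with 3 or fewer UMIs in both libraries (Acta2 and Tagln) have no open point. Xcl1 and Cst3 move inside 2-fold (to 0.48 and -0.43), whereas Ifi27l2a and Kif21b stay outside it.

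Other differences were spread over many members. Kif21b, a kinesin motor of T cells, had 32.2 and 83.96 CPM (1.35) in 11 control and 44 D-CAN members. Its ratio in CD4 T cells was -0.56 (-1.28 to 0.16). Uba2, an enzyme of SUMO conjugation, had 29.9 and 72.2 CPM (1.24), and Tmed9, a carrier of early secretion, 91.9 and 188 (1.02). Itgb1, the β1 integrin of memory and migrating T cells, was lower, with 140 and 57.1 CPM (-1.29) and a ratio of 0.85 in CD4 T cells, or 0.73 without the CD4 T cells with endothelial transcripts. Jaml, an adhesion molecule of T cells in epithelia, had 85.0 and 35.3 CPM (-1.25). In CD4 T cells its ratio was 0.98 (-0.32 to 2.67), on 6 and 19 UMIs. Ahnak, a scaffold protein, had 177 and 73.9 CPM (-1.25), and Phlda1 89.6 and 38.6 (-1.20, with -1.23 in CD4 T cells). In the cytotoxic CD8 cells left out by the rules, Itgb1 had 150 and 209 CPM, Ahnak 170 and 370 and Phlda1 55.1 and 74.0. Jaml was lower there too, with 140 and 103 CPM. Those cells also held 3 and 240 UMIs of the endothelial list gene Fabp4. The pseudogenes Rpl10-ps3 and Rpl9-ps6 were among the higher genes, and their reads cannot be split from those of their parent genes.

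Transcripts of other cell types moved between the libraries as well. The 14 genes of the B cell list summed to 429 CPM in control and 186 in D-CAN members. Ighm, the most abundant of them, had 124 and 113 CPM against 1700 and 1916 in B cells, and Cd79a and Ms4a1 were at 0 by the rules. Cd74 had 30 and 6 UMIs, H2-Ab1 37 and 6, of which 24 lay in 1 control member, and Igkc 27 and 11. The stromal list summed to 402 and 21.8 CPM, with Acta2 the most abundant. The endothelial list summed to 101 and 99.1 CPM, led by Pecam1, the myeloid list to 20.7 and 16.8, with 7 of 12 genes at 0, and the red cell list to 9.19 and 38.6, led by Hbb-bs. The NK list summed to 386 and 475 CPM, nearly all Nkg7, while Klrb1c had 1 and 3 UMIs and Ncr1 1 and 0. The γδ list summed to 9.19 and 1.68 CPM, and the list of epithelial genes of the tumor to 4.59 and 3.36, with 4 of 5 genes at 0. In all, 3 control members and 0 D-CAN members held 5 or more UMIs of stromal, endothelial, red cell or epithelial genes. The part of these transcripts in the interferon and naive results was not tested, but without these 3 members the log2 ratio of Ifi27l2a was -1.71.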

How the data were processed

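Stromal/vascular cells of SAT and cells of the grafts were captured with the 10x Genomics 3′ chemistry in 4 libraries. Per the labels and the study's methods, the authors made the deposited count matrices with Cell Ranger 3.1.0 and STAR 2.6 on mm10. The file headers name Cell Ranger 3.1.0 for SAT control but 3.0.2 for SAT D-CAN, and the effect of this difference cannot be told apart from the treatment. The values are whole UMI counts, not normalized. No cell annotation was used here. Cells with fewer than 200 genes were left out, and the tumor libraries were read for cell counts only. Members and CD4 T cells were chosen on UMI counts, with no clustering and no doublet caller. Counts were summed per library and cell group, and log2 ratios of CPM used a pseudocount of 0.5 UMIs. A gene entered the counts past 2-fold with at least 50 UMIs over the groups compared and list medians with at least 20. With 1 library per group no test was run. Shares have exact Clopper-Pearson intervals (combined by Newcombe's square-root rule for differences), levels exact Poisson intervals and ratios exact conditional intervals, at 95%. Genes were ranked against CD4 T cells by the library with the smaller difference. The text names the 10 genes with the highest and lowest ratios in each comparison, the 4 most abundant genes of each list and list genes past 2-fold. Some genes that fit this rule are not reported here. Genes named outside this rule were chosen after their values were seen. The members and the 24 gene lists were chosen with earlier results of these data known. The fold and interval steps were tested on simulated counts. Python 3.11.15, numpy 2.4.6, scipy 1.17.1, pandas 2.3.3 and matplotlib 3.10.9 were used. Alternatives were other UMI minimums, thinned cells, equal weight per cell, a stricter Cd8 rule, a mitochondrial limit of 10% and, chosen after seeing the data, members without UMIs of other cell types and shares among cells with at least 1000 UMIs.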

Additional observations from a re-analysis of the deposited data

How the results depend on the processing

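No paired analysis was possible because each group had 1 library, and for the same reason no replicate could be left out. The difference in the share of all cells, 2.87 points, was 1.83 among cells with at least 1000 UMIs, 1.15 after these were thinned to 1000 UMIs, and -2.44 among CD4 and CD8 T cells together. The counts of genes past 2-fold moved with the UMI minimum and depth, as fewer or more genes were tested. With a minimum of 20, 100 and none, and in thinned cells, 64, 8, 227 and 3 genes were higher in CD8 than in CD4 T cells, and 140, 16, 593 and 6 were lower. The same settings gave 100, 2, 1762 and 1 genes higher and 159, 3, 2245 and 5 lower in D-CAN members. With at least 2 Cd8 molecules 6 were higher in D-CAN. Some list medians moved, and the cause was not tested. The interferon list's ratio of CD8 to CD4 in D-CAN, -0.89, was -0.45 at a minimum of 50 UMIs and -0.41 with cells weighted equally. The memory list's ratio of CD8 to CD4 in control, 1.42, was 0.93 at a minimum of 10 and 1.14 with cells weighted equally. The helper list's ratio of D-CAN to control, -0.76, was -0.15 at a minimum of 50, -1.04 with equal weight and -0.30 with at least 2 Cd8 molecules. Its ratio of CD8 to CD4 in control, -1.89, was -2.14, -1.60 and -3.14 under these settings and -2.23 without members holding UMIs of other cell types, and in D-CAN, -1.70, it was -2.32 at a minimum of 10 and -2.09 with at least 2 Cd8 molecules. Acta2, whose 81 control UMIs lay in 1 member, had a ratio of D-CAN to control of -6.22. Settings that leave out this member set 0 control UMIs against 1 in D-CAN, so their values rest on the pseudocount and are no reversal of a measured difference: 0.89 with at least 2 Cd8 molecules, 1.11 with at most 10% mitochondrial UMIs and 1.10 without members holding UMIs of other cell types. Under the alternatives run, 23 gene counts, 92 list medians and 415 ratios of named genes stayed within the limits set for them, where 17, 13 and 25 did not. At member sums of 435458 and 595547 UMIs, genes under 50 UMIs have wide intervals, also where the difference is large. Spread between mice was not measured.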
